A study of Arabidopsis thaliana with 6 samples.

Results

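The genes described here encode 3 families of plant calcium-signalling proteins: the calcium-dependent protein kinases (CPK), the kinases that calcineurin B-like proteins recruit (CIPK), and the calcineurin B-like calcium sensors themselves (CBL). They were matched by name, as every row of the deposited table named CPK, CIPK or CBL followed by digits. These members were chosen with earlier results of these data known. This gave 69 of the 27655 genes, of which 34 were CPK, 26 were CIPK and 9 were CBL genes. A further sensor gene, CBL3, is listed in the table as ATCBL3 and was missed by that rule, so its values are given separately and it is not in any count.

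The series measured messenger RNA by sequencing in seedlings of Arabidopsis thaliana, harvested whole, of the Col-0 ecotype, a laboratory wild type. One group (Sub, 3 libraries) was submerged for 1 h before harvest, and the other (Air, 3 libraries) stayed in air for the same 1 h. All seedlings of both groups had grown for 14 days on MS-agar plates in long days, and the labels name no mutation or transgene. The labels do not say whether the replicates of a group came from separate plates or sowings, so the p-values reflect the spread among the libraries sequenced, which may be technical.

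Calcium ions are a fast messenger in plant cells, and touch, cold, salt, pathogens and loss of oxygen all cause transient rises in cytosolic calcium. A CPK carries its own calcium-binding EF-hand domain on the same chain as the kinase, so it senses and phosphorylates in a single protein. A CIPK has no such domain: a CBL sensor binds calcium, docks on the regulatory NAF motif of the CIPK and takes it to the plasma membrane or the vacuole membrane, where ion channels and transporters are among the substrates. In rice seedlings, OsCIPK15 is known to link low oxygen to sugar signalling and starch use during germination under water, although the numbering of rice and Arabidopsis genes does not by itself make them counterparts.

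Counts summed to 29673924, 22220014 and 20041244 in Sub libraries and 25900177, 20564425 and 20287275 in Air libraries. Of 19495 genes that passed the filter on low counts, 55.0% were called, meaning an adjusted p under 0.05 by edgeR's quasi-likelihood test with Benjamini-Hochberg adjustment over all of them. Both leaf and root transcripts were present in every library, as the label of whole seedlings requires, and pollen markers were at or near 0, with PPME1 and DUO1 at 0 counts in all 6 libraries. CPM here are counts per 1e6 counts of the library, after its total was scaled by a TMM factor. The 7 leaf markers summed to 16540 to 18966 CPM in Sub libraries and 22742 to 24397 CPM in Air libraries. Of these 7 markers, 1 was called higher and 4 lower. The 17 root markers summed to 1100 to 1500 CPM in Sub libraries and 1802 to 2124 CPM in Air libraries, with 2 called higher and 1 lower, and none was at 0 in any library. That sum was mostly BGLU23, with 781 to 1151 CPM in Sub and 1576 to 1852 CPM in Air. The other 16 root markers summed to 319 to 354 CPM in Sub and 198 to 273 CPM in Air. Much of that came from TIP2-2, with 190 to 199 CPM in Sub and 89.5 to 115 CPM in Air. Single markers of the 16 went both ways, from EXPA7 at -0.43 to NRT2.1 at 1.44 on the log2 scale. The median log2 fold change of all 17 was 0.36. The part of these marker values in the values that follow was not tested beyond a fit with the root markers as a covariate, in which 25 members were called higher and 11 lower. In libraries made from whole seedlings, fewer cells of a type and less RNA per cell cannot be told apart.

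Under water the kinases with a built-in calcium sensor were the family that moved most nearly in 1 direction, while CIPK and CBL genes, like genes in general here, moved both ways. Of the 69 genes, 54 passed the filter. Among these, 28 were called higher and 11 lower in Sub, which is 51.9% higher and 20.4% lower, against 28.8% and 26.1% of all genes tested. With upper quartile scaling, which shifts the median of all genes by -0.12, 25 members were higher and 13 lower, and 4465 genes in all were higher and 6813 lower. Together 39 members (72.2%) were called, against the 55.0% for all genes. At least a 2-fold rise was called for 14 members, against 9.69% of all genes, and at least a 2-fold fall for 3 members, against 5.59% of all genes. Values of Sub and Air libraries were fully separated for 42 of the 54 members, against 62.1% of all genes. The median log2 fold change of the 54 members, Sub over Air, was 0.46, against 0.01 for all genes tested, and single members ran from -2.40 to 3.11.

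**Figure D1:**
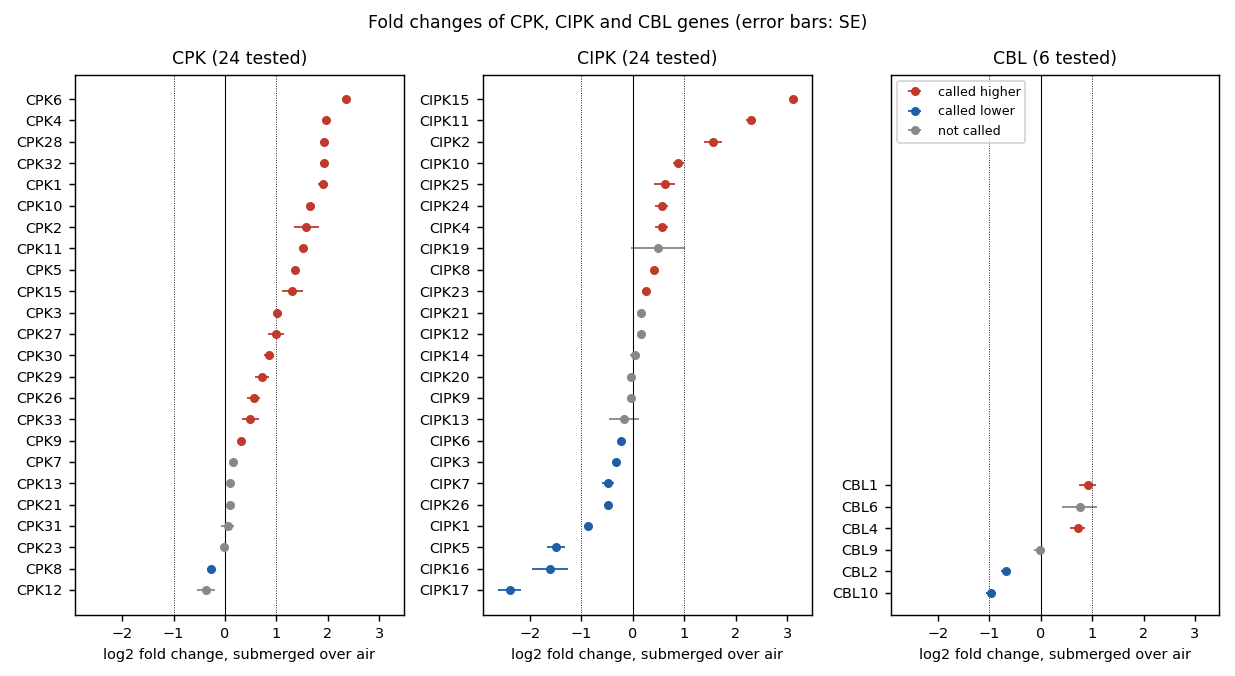
Log2 fold change (x axis, submerged over air) of each CPK, CIPK and CBL gene that passed the filter, with bars for the standard error and dotted lines at a 2-fold change; colour shows the call. Nearly all called CPK genes lie to the right of 0, with CPK8 on the left, while CIPK genes run from CIPK17 at -2.40 to CIPK15 at 3.11 and the called CBL genes split evenly.

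The gene with the largest rise was CIPK15 (AT5G01810), also known as PKS3, a kinase known in Arabidopsis for restraining abscisic acid responses with the phosphatase ABI2. It had 223, 231 and 254 CPM in Sub libraries, against 27.2, 28.9 and 25.7 CPM in Air libraries. The groups lay far apart, and the 3 libraries of each group lay close together. The log2 fold change was 3.11 ± 0.07 (SE), or 8.65-fold higher in Sub (adjusted p = 1.21e-11), which ranked 264 among the 19495 genes tested, counted from the largest rise. On the TPM scale, which accounts for transcript length, CIPK15 ranked 2 of 26 CIPK genes in Sub and 12 of 26 in Air. It held 16.6% of the family's summed TPM in Sub and 2.17% in Air.

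The genes on either side of CIPK15 did not share a change of this size. AT5G01800 lies upstream on the same strand and ends 84 bases before CIPK15. It had 70.4, 73.8 and 71.7 CPM in Sub libraries, against 62.9, 66.6 and 59.5 CPM in Air libraries (log2 fold change 0.19 ± 0.06, adjusted p = 0.0166). CIPK14, the next gene downstream, converges on CIPK15 from the other strand and had 23.5, 25.0 and 22.5 CPM in Sub libraries, against 24.9, 20.3 and 23.8 CPM in Air libraries. Its groups overlapped and it was not called (0.04 ± 0.09, adjusted p = 0.734).

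The DNA just upstream of CIPK15 and CPK6, the members with the largest rises, is shown; it was read from the RefSeq TAIR10.1 assembly, 5′ to 3′ on the strand of the gene. For CIPK15 it is the whole stretch between the end of AT5G01800 and the annotated start (chr5:309290-309373, plus strand). For CPK6 (chr2:7516080-7516329, plus strand) it is the 250 bases before the start. Neither stretch holds any of the motifs searched, so no base is in capitals.
CIPK15: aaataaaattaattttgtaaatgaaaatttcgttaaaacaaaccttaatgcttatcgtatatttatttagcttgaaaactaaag
CPK6: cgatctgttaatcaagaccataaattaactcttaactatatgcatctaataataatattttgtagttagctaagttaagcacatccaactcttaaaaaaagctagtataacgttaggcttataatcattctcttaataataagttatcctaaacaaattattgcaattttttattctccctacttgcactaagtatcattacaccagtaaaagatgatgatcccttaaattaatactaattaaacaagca

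In such windows of 250 bases, both strands were searched for short motifs in 27444 genes of the table. CGCGTT, the core of a rapid stress response element bound by CAMTA factors, was found upstream of 1 of the 14 members called at least 2-fold higher (CIPK2), against 2.59% of all genes and 8.16% of the 1876 genes with a window that were called at least 2-fold higher. ACGTG, the core of the abscisic acid response element, was found upstream of none of the 14, against 22.9% of all genes and 28.6% of those 1876. CACGTG, the G-box, contains ACGTG and was likewise upstream of none, against 6.49% of all genes and 7.94% of the 1876. GCCGCC, bound by ethylene response factors, was upstream of none of the 14, against 1.87% of all genes and 1.87% of the 1876. A window can overlap a neighbouring gene, and a match or its absence describes the letters alone.

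Among CPK genes, 24 of 34 passed the filter, and 17 were called higher (70.8%) and 1 lower (4.17%), against 28.8% and 26.1% of all genes tested. Their median log2 fold change was 0.92, against 0.01 for all genes tested. At least a 2-fold rise was called for 11 of the 24, against 9.69% of all genes tested. The summed level of the family was 1011, 1024 and 956 TPM in Sub libraries, against 466, 464 and 469 TPM in Air libraries, a ratio of 2.14. This sum weights abundant genes most: the most abundant by mean TPM were CPK3, CPK5 and CPK1, each of which rose.

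**Figure D2:**
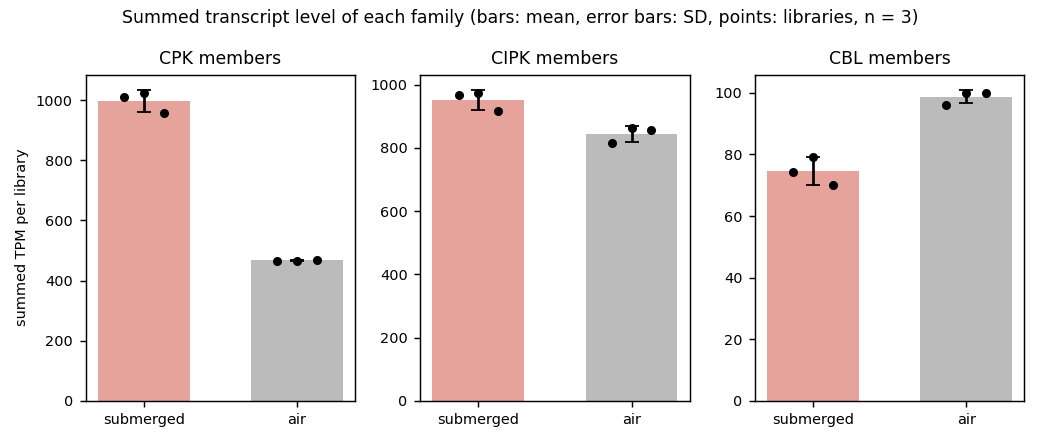
Summed deposited TPM of all CPK, CIPK and CBL members (y axis, starting at 0 and scaled separately for each family) in submerged and air libraries; bars are means, error bars the SD over 3 libraries and points the libraries. CPK genes sum to 997 ± 36.3 TPM in Sub and 467 ± 2.58 TPM in Air, CIPK genes to 952 ± 31.3 and 845 ± 25.0 TPM, and the 9 CBL genes to 74.6 ± 4.53 and 98.7 ± 2.18 TPM; the CBL sum does not hold CBL3, with which its direction turns.

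By sequence, plant CPK proteins fall into 4 groups, and group I showed the highest median among those with more than 1 gene tested. Of all genes tested, 28.8% were called higher and 26.1% lower. In group I, 8 of 10 members passed the filter, and 7 were called higher (87.5%) with none lower (median 1.55). Group II had 6 of 9 tested members called higher (66.7%) and none lower (median 0.50). Group III had 3 of 6 called higher (50%) and 1 lower (16.7%), with a median of 0.50. Group IV had 1 gene tested, CPK28. Differences between these groups were not tested.

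**Figure D3:**
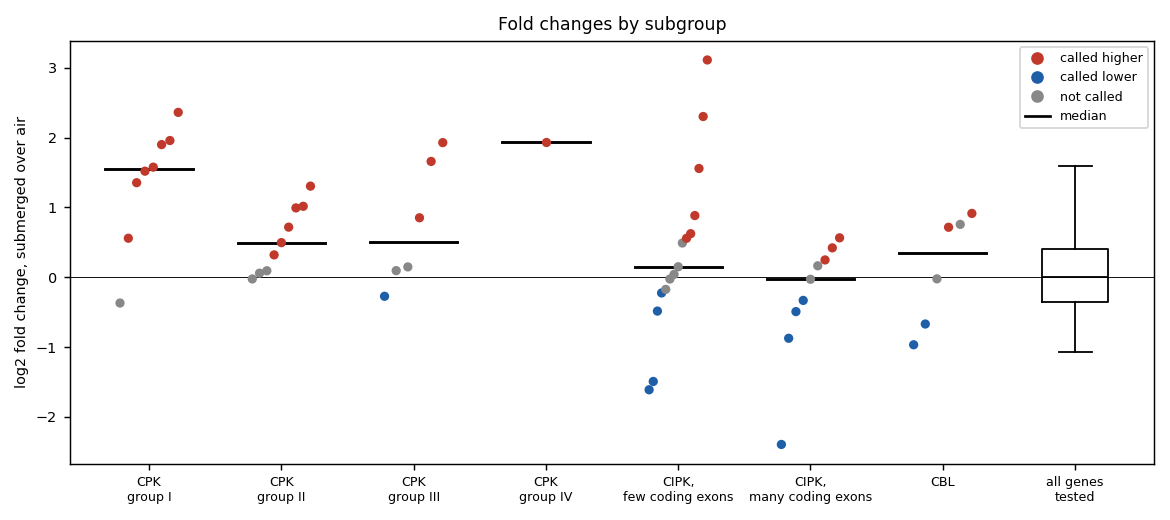
Log2 fold change (y axis, submerged over air) of each tested gene by CPK group, CIPK gene structure and CBL family; points are genes coloured by call, and bars are medians. The box at the right shows all genes tested, with quartiles at -0.35 and 0.41. Its whiskers are at the 5th and 95th percentiles (-1.08 and 1.59). Above the upper whisker lie CPK6, CPK4 and CPK1 of group I. CPK28 of group IV, CPK32 and CPK10 of group III, CIPK15 and CIPK11 lie above it too.

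Group I holds the kinases best known from immune and abscisic acid signalling. CPK6 (AT2G17290), which acts on guard cell anion channels and in immunity, had 128, 123 and 119 CPM in Sub libraries, against 26.9, 23.4 and 21.6 CPM in Air libraries. Its groups were widely separated, with a log2 fold change of 2.36 ± 0.08 (adjusted p = 9.18e-11), the largest among CPK genes tested. In TPM it ranked 4 of 34 CPK genes in Sub and 14 of 34 in Air. CPK5 (AT4G35310), which phosphorylates the NADPH oxidase RBOHD in pattern-triggered immunity, had 196, 201 and 181 CPM in Sub libraries, against 76.1, 74.0 and 76.3 CPM in Air libraries (1.35 ± 0.06, adjusted p = 7.97e-10). It was among the most abundant family members in both groups and its libraries did not overlap between them.

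CPK4 and CPK11 are close relatives that both promote abscisic acid responses and phosphorylate ABF transcription factors. CPK4 (AT4G09570) had 62.5, 66.7 and 68.5 CPM in Sub libraries, against 17.6, 17.1 and 16.1 CPM in Air libraries (1.96 ± 0.07, adjusted p = 1.71e-10). CPK11 (AT1G35670) had 57.4, 58.4 and 65.8 CPM in Sub libraries, against 20.5, 21.1 and 21.7 CPM in Air libraries (1.52 ± 0.07, adjusted p = 2.17e-09). Neither gene's groups overlapped. Of the 50-base stretches of CPK4 and CPK11, 0.54% are found elsewhere in the genome, so reads could rarely be split between copies. CPK12, a further relative in this clade, was not called (-0.37, adjusted p = 0.1) but was called lower without Air replicate 2 (-0.49).

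CPK1 (AT5G04870), known from peroxisomes and lipid bodies and from salicylic acid-linked defence, had 187, 186 and 177 CPM in Sub libraries, against 54.6, 40.6 and 52.2 CPM in Air libraries (1.90 ± 0.09, adjusted p = 2.25e-09). It ranked 3 of 34 by TPM in Sub and 7 of 34 in Air. A transcribed pseudogene on the same strand, AT5G04880, covers 99.3% of its exon length in TAIR10.1, so reads of these cannot be told apart. CPK2 (AT3G10660), its closest relative by sequence, was scarce, with 6.65, 5.49 and 8.31 CPM in Sub libraries, against 2.84, 2.35 and 1.57 CPM in Air libraries (1.58 ± 0.24, adjusted p = 0.000116). The low counts of CPK2 gave it a wider error than the other raised group I genes, and its groups still did not overlap. CPK26, also in group I, was called higher by 0.56.

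Outside group I the raised genes covered each of the other groups. CPK28 (AT5G66210) of group IV, which limits immune signalling by driving turnover of the kinase BIK1, had 107, 121 and 102 CPM in Sub libraries, against 26.2, 29.6 and 31.1 CPM in Air libraries (1.93 ± 0.08, adjusted p = 7.62e-10). CPK32 (AT3G57530) of group III, which binds the transcription factor ABF4, had 98.8, 113 and 105 CPM in Sub libraries, against 25.4, 27.6 and 30.4 CPM in Air libraries (1.93 ± 0.08, adjusted p = 4.42e-10). These genes rose by nearly the same amount, and in each the lowest Sub library lay well above the highest Air library. CPK10 (AT1G18890) of group III, known from drought responses, had 74.7, 76.5 and 72.5 CPM in Sub libraries, against 27.1, 20.7 and 22.9 CPM in Air libraries (1.66 ± 0.09, adjusted p = 4.47e-09). Its groups did not overlap. In TAIR10.1 the long noncoding RNA AT1G05453 overlaps 25.0% of the exon length of CPK10 and AT1G18880 overlaps 22.6%, and no source used here states the strand setting of the counting, so reads from the overlaps cannot be told apart.

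In group II, CPK3 (AT4G23650), which acts with CPK6 in guard cells, was the most abundant CPK gene by mean TPM. It had 182, 178 and 173 CPM in Sub libraries, against 88.3, 84.8 and 90.3 CPM in Air libraries (1.02 ± 0.05, adjusted p = 5.86e-09). Its rise was just past 2-fold and its groups were cleanly apart. CPK15 (AT4G21940) was scarce, with 7.46, 9.30 and 6.29 CPM in Sub libraries, against 3.34, 2.49 and 3.49 CPM in Air libraries (1.30 ± 0.20, adjusted p = 0.000133). Its groups did not overlap either. The rise of CPK27 (0.99 ± 0.16) fell just short of 2-fold.

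The other CPK genes called higher, at less than 2-fold, were CPK27, CPK30, CPK29, CPK26, CPK33 and CPK9, with log2 fold changes from 0.32 to 0.99. CPK33 (0.50 ± 0.17, adjusted p = 0.0269) lost its call when any library other than Sub replicate 3 was left out, with values from 0.36 to 0.52 in those fits, and 37.5% of its exon length is overlapped by AT1G07667. CPK8, a group III kinase that phosphorylates the catalase CAT3, was the only CPK gene called lower with all libraries (-0.27 ± 0.07, adjusted p = 0.00619). CPK7, CPK12, CPK13, CPK21, CPK23 and CPK31 were not called, with values from -0.37 to 0.15, although CPK7 was called higher without Air replicate 2 (0.19). CPK21 and CPK23, which activate the anion channel SLAC1 in guard cells, stood at 0.09 and -0.02.

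The genes CPK31, CPK27, CPK22, CPK21 and CPK23 lie next to each other on chromosome 4 in this order, with 1 other gene between CPK21 and CPK23. Among these neighbours CPK27 was called higher, CPK31, CPK21 and CPK23 were not called, and CPK22 did not pass the filter.

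**Figure D4:**
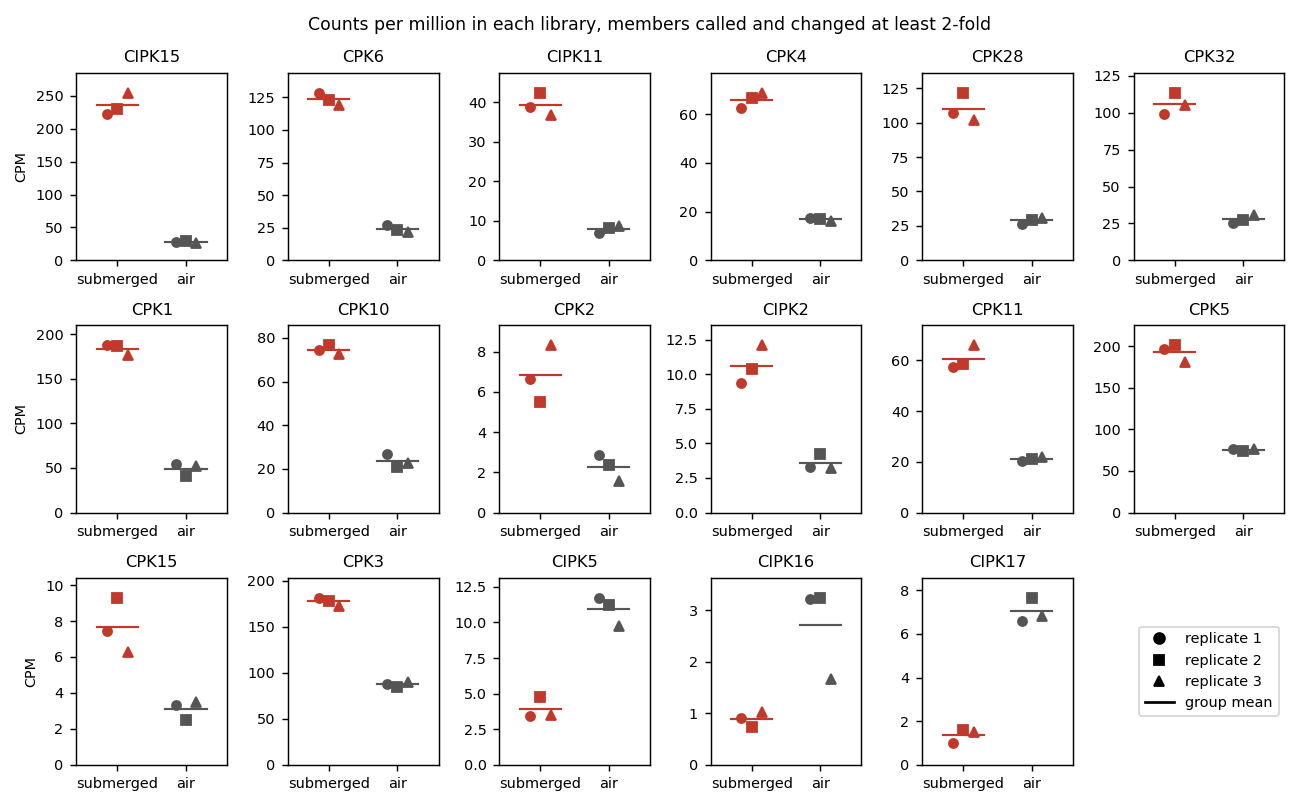
CPM in each library (y axes, starting at 0 and scaled separately for each gene) of the 17 members called with at least a 2-fold change, submerged left and air right; marker shapes are replicate numbers and lines are group means. In each panel the lowest library of the higher group lies above the highest library of the lower group. CIPK15, for one, has 223 to 254 CPM in Sub and 25.7 to 28.9 CPM in Air. The panels were picked by call and size of change, so this separation is no added support. It also held for 62.1% of all genes tested.

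The CIPK family changed little in sum, and its members moved both ways, as genes in general did here. Of 26 genes, 24 passed the filter, and 9 were called higher (37.5%) and 8 lower (33.3%), against 28.8% and 26.1% of all genes tested; the median log2 fold change was 0.10. Summed TPM was 967, 972 and 916 in Sub libraries, against 816, 863 and 855 in Air libraries, a ratio of 1.13. Without CIPK15 the sum was 793 ± 38.3 TPM in Sub and 826 ± 24.6 TPM in Air (SD, n = 3 each), so the sum was higher in Sub only with CIPK15 included.

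After CIPK15, the largest rises were in CIPK11 and CIPK2. CIPK11 (AT2G30360), also known as PKS5, which restrains the plasma membrane proton pump AHA2, had 38.7, 42.2 and 36.7 CPM in Sub libraries, against 6.98, 8.18 and 8.80 CPM in Air libraries (2.30 ± 0.10, adjusted p = 1.01e-09). It ranked 11 of 26 by TPM in Sub and 17 of 26 in Air, with no overlap between groups. The long noncoding RNA AT2G30362, on the opposite strand, covers 98.2% of its exon length in TAIR10.1, so without a known strand setting their reads cannot be told apart. CIPK2 (AT5G07070) had 9.35, 10.4 and 12.1 CPM in Sub libraries, against 3.30, 4.23 and 3.24 CPM in Air libraries (1.56 ± 0.17, adjusted p = 4.91e-06). Every Sub library exceeded every Air library for this gene.

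The CIPK genes with the largest falls were all scarce transcripts. CIPK17 (AT1G48260) had 0.979, 1.59 and 1.50 CPM in Sub libraries, against 6.60, 7.66 and 6.83 CPM in Air libraries (-2.40 ± 0.23, adjusted p = 1.54e-06). It was 5.26-fold lower in Sub and ranked 87 among all genes tested, counted from the largest fall. CIPK16 (AT2G25090) had 0.911, 0.726 and 1.03 CPM in Sub libraries, against 3.22, 3.24 and 1.67 CPM in Air libraries (-1.61 ± 0.35, adjusted p = 0.00159). Air replicate 3 of CIPK16 lay nearer to the Sub libraries than the other Air libraries did, without overlapping them. CIPK5 (AT5G10930) had 3.41, 4.76 and 3.51 CPM in Sub libraries, against 11.7, 11.2 and 9.78 CPM in Air libraries (-1.49 ± 0.17, adjusted p = 6.63e-06).

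The other called CIPK genes changed by less than 2-fold. CIPK10, CIPK25, CIPK24, CIPK4, CIPK8 and CIPK23 were higher in Sub, with log2 fold changes from 0.25 to 0.88. CIPK1, CIPK26, CIPK7, CIPK3 and CIPK6 were lower, with values from -0.87 to -0.23. CIPK24, also known as SOS2, the kinase that activates sodium export under salt, rose by 0.56 ± 0.13 (adjusted p = 0.00232). CIPK1, which CBL1 and CBL9 recruit to the plasma membrane, fell by 0.87 on the log2 scale (adjusted p = 3.75e-07). CIPK23, which activates the potassium channel AKT1, stood at 0.25 ± 0.07 (adjusted p = 0.0106), and lost its call without Sub replicate 2 (0.21) or Air replicate 3 (0.19). CIPK25 stood at 0.62 (adjusted p = 0.0202), and lost its call without Sub replicate 1 (0.54), Air replicate 1 (0.48) or Air replicate 3 (0.59).

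The most abundant CIPK genes by mean TPM were CIPK6, CIPK15 and CIPK20. CIPK6, which with CBL4 brings the potassium channel AKT2 to the plasma membrane, had 266, 256 and 229.6 CPM in Sub libraries, against 284, 286 and 309 CPM in Air libraries (-0.23 ± 0.07, adjusted p = 0.0106). CIPK20 was not called (-0.03). CIPK9, CIPK12, CIPK13, CIPK14, CIPK19, CIPK20 and CIPK21 made up the CIPK genes tested but not called, with values from -0.17 to 0.49. Of these, CIPK12 was called higher without Sub replicate 3 (0.19) or Air replicate 3 (0.19), and CIPK21 without Air replicate 2 (0.24). For CIPK21, 11.8% of its 50-base stretches are found elsewhere in the genome, so some of its reads could be split between copies.

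CIPK genes are of 2 structural kinds, which follow the gene models rather than the values here. The 17 genes with 1 or 2 coding exons, of which 15 passed the filter, had 6 called higher and 4 lower, with a median of 0.15 and values from -1.61 to 3.11. The 9 genes with 8 to 15 coding exons, depending on the transcript model, all passed the filter, and had 3 called higher and 4 lower, with a median of -0.03 and values from -2.40 to 0.56. Of all genes tested, 28.8% were called higher and 26.1% lower. Each of the 3 CIPK genes called at least 2-fold higher was of the kind with few coding exons. So were CIPK5 and CIPK16, while CIPK17 was of the kind with many. The kind with few coding exons held 15 of the 24 CIPK genes tested. The difference between the kinds was not tested.

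Among the CBL sensors, 6 of 9 genes passed the filter, with 2 called higher, 2 lower and none called with as much as a 2-fold change, too few to set against the shares of all genes. CBL1, a plasma membrane sensor, had 15.1, 14.7 and 12.3 CPM in Sub libraries, against 9.06, 5.69 and 7.52 CPM in Air libraries (0.91 ± 0.16, adjusted p = 0.000328). CBL4, also known as SOS3, the partner of CIPK24 in salt tolerance, had 10.9, 8.71 and 12.4 CPM in Sub libraries, against 6.56, 6.96 and 5.95 CPM in Air libraries (0.72 ± 0.15, adjusted p = 0.00152). Both of these sensors were higher in every Sub library than in any Air library. CBL10, which protects shoots from salt, had 17.5, 22.5 and 20.7 CPM in Sub libraries, against 37.2, 39.1 and 42.1 CPM in Air libraries (-0.97 ± 0.09, adjusted p = 1.79e-06). CBL2, a vacuole membrane sensor, had 16.5, 18.0 and 14.8 CPM in Sub libraries, against 27.3, 24.6 and 26.5 CPM in Air libraries (-0.67 ± 0.09, adjusted p = 4.55e-05). Neither overlapped between groups, and with CBL9 they were the most abundant CBL members by mean TPM. CBL9, the close relative of CBL1, was not called (-0.02), nor was CBL6 (0.76, adjusted p = 0.0804).

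The summed TPM of the 9 CBL members was 74.4, 79.2 and 70.2 in Sub libraries, against 96.2, 100.08 and 99.9 in Air libraries, a ratio of 0.756. CBL3 (AT4G26570), the vacuole membrane partner of CBL2, went the other way, with 78.0, 83.0 and 77.0 CPM in Sub libraries, against 48.6, 41.6 and 45.1 CPM in Air libraries (0.81 ± 0.07, adjusted p = 4.27e-07). With 83.5 TPM in Sub and 47.3 TPM in Air it was more abundant than any CBL member. Adding CBL3 turned the direction of the sum, to 158 ± 9.01 TPM in Sub and 146 ± 1.17 TPM in Air (SD, n = 3 each), a ratio of 1.08.

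Genes known as substrates or partners of these kinases were described from a list of 20, of which 19 passed the filter. In that list 10 were called higher (52.6%) and 4 lower (21.1%), against 28.8% and 26.1% of all genes tested, with a median log2 fold change of 0.44, against 0.01 for all genes tested. WRKY48 and WRKY28, transcription factors that group I CPK kinases phosphorylate in immunity, had the largest and the third largest changes. WRKY48 averaged 28.2 ± 2.20 CPM in Sub and 2.13 ± 0.772 CPM in Air (SD, n = 3 each), a log2 fold change of 3.72 ± 0.18 (adjusted p = 2.35e-09). WRKY28 averaged 20.04 ± 1.45 CPM in Sub and 4.31 ± 0.105 CPM in Air, a log2 fold change of 2.22 ± 0.12 (adjusted p = 4.98e-09). SLAH3, an anion channel that CPK kinases activate, averaged 148 ± 21.7 CPM in Sub and 15.7 ± 3.72 CPM in Air, a log2 fold change of 3.23 ± 0.15 (adjusted p = 1.28e-09). For none of these genes did the groups overlap, but they were picked by call and size of change, so this is no added support. The groups were also apart for 62.1% of all genes tested.

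The targets on this list moved both ways. BIK1, whose turnover CPK28 promotes, averaged 49.8 ± 3.96 CPM in Sub and 18.4 ± 0.528 CPM in Air, and rose together with CPK28 (1.43 ± 0.08, adjusted p = 6.08e-09). The sodium exporter SOS1, listed as NHX7, fell by 0.43 on the log2 scale (adjusted p = 0.000643), while the CIPK24 and CBL4 genes that encode its activators rose. The vacuolar calcium exchanger CAX1 was the only target called at least 2-fold lower (-1.36 ± 0.10, adjusted p = 8.47e-08). The 5 tested targets that were not called included ABF4 (-0.03 ± 0.06) and WRKY8 (1.06 ± 0.62). Among 6 clade A PP2C phosphatases, which bind CIPK or CPK proteins, 5 passed the filter. Of these, 2 were called higher (PP2CA at 0.45 and ABI1 at 0.35) and 1 lower (ABI2 at -0.59), with a median of 0.20. These 5 are too few to set against the 28.8% higher and 26.1% lower of all genes tested. ABI2, the phosphatase partner of CIPK15, averaged 6.48 ± 0.767 CPM in Sub and 9.80 ± 0.761 CPM in Air (adjusted p = 0.00313).

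The 15 members that did not pass the filter were CPK14, CPK16, CPK17, CPK18, CPK19, CPK20, CPK22, CPK24, CPK25, CPK34, CIPK18, CIPK22, CBL5, CBL7 and CBL8. Several of these, among them CPK17 and CPK34, are known from pollen, whose markers were at or near 0 here. CPK20 and CBL7 had 0 counts in all libraries. CPK14, CPK18, CPK24 and CBL5 did not exceed the floor of 6 counts in either group, so their levels cannot be compared at this depth. Summed over 3 libraries, the highest were CIPK22 with 37 counts in Sub and 10 in Air, CPK22 with 32 in Sub and 23 in Air, CIPK18 with 27 in Sub and 13 in Air, and CPK25 with 22 in Sub and 11 in Air. CPK19 had 20 counts in Sub and 14 in Air, CPK16 had 10 in Sub and 2 in Air, CPK17 had 9 in Sub and 11 in Air, CBL8 had 8 in Sub and 11 in Air, and CPK34 had 6 in Sub and 8 in Air.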

How the data were processed

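Messenger RNA from 6 whole-seedling libraries (3 Sub, 3 Air) was analysed, grouped by the sample titles and treatment labels. The deposited tables give, per the file headers, whole-number counts, RPKM, TPM and a CPM value per gene and library. The authors' counts were tested, the authors' TPM was used for levels between genes, and the authors' RPKM only to compare exon lengths. That deposited CPM behaves as a signal scaled by library, per the file headers and values, and entered no result. The submitters' processing notes name the build TAIR10. The aligner, the counting tool and whether counting used strand are stated in no source used here. Low counts were mostly even (85.8% to 87.4% of counts from 1 to 20), as if pairs counted as 2, and 6 counts per group (3 read pairs) served as the floor, which covers counting error alone. The authors' table of fold changes was not used here.

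The test was that of edgeR 4.0.16 under R 4.3.3 (TMM, filterByExpr with minimum count 10 and minimum total 15, quasi-likelihood F test, no block). Benjamini-Hochberg adjustment ran over 19495 genes, with calls at an adjusted p under 0.05. CPM in the text was computed here from counts and TMM factors, with n = 3 per group. Every adjusted p is from this edgeR test. Standard errors are the log2 fold change divided by the root of F. The procedure was tested on simulated data. Each library counted as 1 replicate. Replicate pairs differed by more than sampling noise, but that spread may be technical and does not show that the replicates were independent.

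The rule for named genes took every member called with at least a 2-fold change, members under the filter, the 3 most abundant members of each family by TPM, and up to 3 called genes of largest change per related list. Other genes, such as CBL1, CBL4, CPK8, CPK33, CIPK14, CIPK23 to CIPK25, BIK1, NHX7, CAX1, ABF4 and WRKY8, were named after their values were seen. The members and lists were chosen with earlier results of these data known.

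Sequences and gene models are from the RefSeq TAIR10.1 assembly, which 27445 of 27655 identifiers matched. Exon lengths implied by the deposited RPKM matched its models within 0.1% for 99.2% of genes with enough counts. Alternatives covered scaling, filters, DESeq2 1.42.0, limma 3.58.1 voom, a replicate block, a root-marker covariate, halved counts and leaving out each library.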

Additional observations from a re-analysis of the deposited data

How the results depend on the processing

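Each member was refitted under 16 alternatives. Of 859 member values, 823 kept their direction and side of the threshold, and none of the 39 called members changed sign. The 17 members called with at least a 2-fold change kept their call in every alternative whose filter let them be tested. CPK33, CIPK23 and CIPK25 lost theirs under upper quartile scaling, with the root-marker covariate and when some libraries were left out. Upper quartile scaling shifted the median of all genes by -0.12, which gave 25 members higher and 13 lower, and 4465 genes higher and 6813 lower in place of 5624 and 5094. Under it 2 CPK members were called lower in place of 1, and leaving out each library gave 1 to 2. It also moved CPK12 (-0.49) and CIPK20 (-0.15) past the threshold. Signs turned only among members that were not called. With upper quartile scaling the values were -0.028 for CPK13, -0.063 for CPK31, -0.029 for CPK21 and -0.081 for CIPK14, and with the root-marker covariate 0.017 for CPK23 and 0.016 for CIPK20. Leaving out each library gave -0.080 to 0.016 for CIPK9, -0.32 to 0.038 for CIPK13, -0.068 to 0.016 for CPK23, -0.043 to 0.10 for CIPK14, -0.061 to 0.000701 for CIPK20 and -0.098 to 0.061 for CBL9. The cause was not tested. Over these fits 26 to 29 members were higher and 11 to 12 lower. Replicate numbers gave correlations of deviations of -0.04, 0.04 and 0.04 between groups, and 1 of 3 numbers matched best with itself. These values show no sign of pairing by number, but so few libraries cannot exclude it. A replicate block gave 28 members higher and 11 lower. Depth limits the 15 members under the filter.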

Other observations

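The CDPK-related kinases, which resemble CPK proteins but have EF-hands that bind calcium poorly, moved both ways under water. All 8 passed the filter, with 2 called higher and 4 lower, against 28.8% higher and 26.1% lower among all genes tested. Their median log2 fold change was -0.26, against 0.01 for all genes tested and 0.92 for the 24 CPK genes tested. CRK4, listed as CRK4_2 (AT5G24430), averaged 64.7 ± 1.92 CPM in Sub and 20.7 ± 1.46 CPM in Air (SD, n = 3 each), a log2 fold change of 1.64 ± 0.07 (adjusted p = 7.53e-10). CRK1 (AT2G41140) averaged 23.3 ± 1.31 CPM in Sub and 43.7 ± 1.73 CPM in Air (-0.91 ± 0.07, adjusted p = 2.23e-07). CRK5, listed as CRK (AT3G50530), stood at -0.55 ± 0.06. The difference between these kinases and the CPK family was not tested.

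The SnRK2 kinases are relatives of the CIPK kinases that act in abscisic acid and osmotic signalling without a CBL sensor. Of 10 tested, 3 were called higher and 3 lower, shares near the 28.8% and 26.1% of all genes tested. Their median was 0.13, and none changed as much as 2-fold. The abscisic acid-activated kinase SnRK2.3, listed as SRK2I (AT5G66880), averaged 35.7 ± 2.69 CPM in Sub and 56.7 ± 0.687 CPM in Air (-0.67 ± 0.07, adjusted p = 2.55e-06). SnRK2.10, listed as SRK2B (AT1G60940), stood at -0.63 ± 0.06, and SnRK2.2, listed as SPK-2-2 (AT3G50500), at -0.49 ± 0.05.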
